A study of Homo sapiens with 2 samples.

Results

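The Notch pathway was followed at the mRNA level in H2228 cells without and with interleukin 4 (IL4). H2228 is a human lung adenocarcinoma line with the fusion gene EML4-ALK variant 3, and IL4 is a cytokine that signals through JAK kinases and STAT6. The 10 genes followed were the receptors NOTCH1, NOTCH2 and NOTCH3, the ligands JAG1, JAG2 and DLL1, the DNA-binding factor RBPJ, and the target genes HES1, HEY1 and HEY2. They were chosen by name, with earlier results of these data known, and all 10 were found among the 19775 genes measured. Every probe set annotated to 1 of these genes and to no other gene was taken, which gave 28 probe sets, and a gene was represented by the probe set whose mean over both arrays was highest.

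RNA was hybridized to Human Genome U133 Plus 2.0 arrays, 1 array with RNA of untreated cells and 1 with RNA of cells treated with IL4 at 100 ng/mL for 30 min according to the series description. The sample labels of both arrays also mention transfections of 48 h with EML4-ALK plasmids, siRNAs or negative controls, and whether these cultures had been transfected cannot be told from the sources used here. With 1 array per condition there were no replicates, so no test was possible and no p-value is given. Each difference below separates 1 culture from 1 other culture, and IL4 and any other difference between these cultures cannot be told apart. Values are log2 expression values from RMA, a method that corrects background, equalizes arrays and summarizes the probes of a probe set. A log2 difference is always IL4 minus untreated. Values of different probe sets are not on a common scale, so differences were taken between the arrays within a probe set. Where levels of probe sets are set against a median of all probe sets, listed as ranges or summed, they give a rough guide only.

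Notch receptors are cell surface proteins that are cut after they bind a ligand on a neighbouring cell. The freed intracellular part enters the nucleus, joins RBPJ and a Mastermind coactivator on DNA, and switches on target genes such as the HES and HEY repressors. In the airway, Notch signalling is known for steering progenitor cells toward secretory rather than ciliated or neuroendocrine fates.

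The target repressors HES1 and HEY1 were more than 2-fold lower with IL4, while RBPJ and all 3 receptors differed by less than 1.5-fold. HES1 was 2.15-fold lower and HEY1 was 2.12-fold lower. The ligand DLL1 was 1.51-fold lower, just past the 1.5-fold level named in the paper's results, and the ligands JAG1 and JAG2 did not pass it. In all, 3 of 10 genes were at least 1.5-fold lower, where 4.39% of all genes were, and 0 were at least 1.5-fold higher, where 3.21% of all genes were. Among the 9 genes whose mean was not below 5.03, the median over all probe sets, 3 were lower and 0 were higher, where 5.88% and 4.34% of all genes at that level were. At 2-fold, the filter named in the microarray methods, 2 of 10 genes were lower, where 0.89% of all genes were. Since the genes were chosen with earlier results of these data known, these shares give a scale and not a test. In RNA from whole cultures, fewer cells that express a gene and less RNA per cell cannot be told apart. The median log2 difference was -0.079 over the 10 genes and 0 over all genes.

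**Figure D1:**
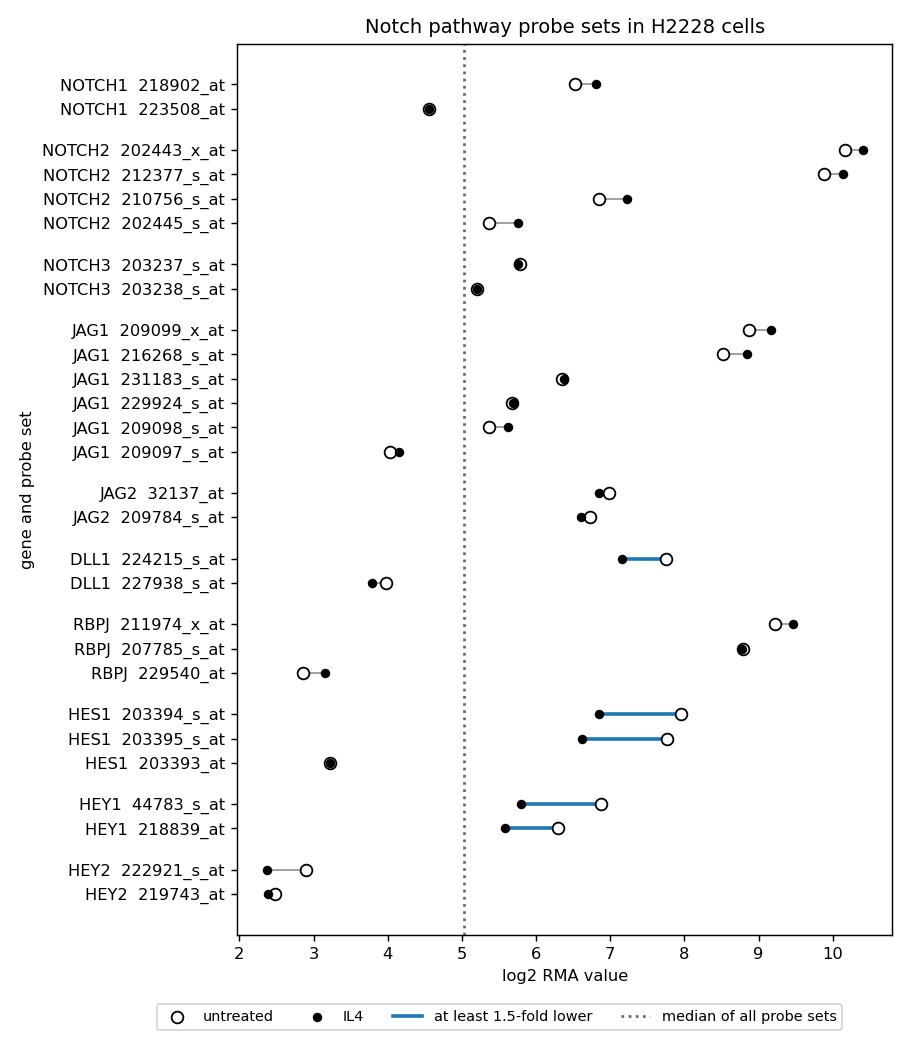
Log2 RMA values (x axis) of all 28 probe sets of the 10 Notch genes (rows), with open circles for untreated cells and filled circles for IL4, 1 array each. Blue lines mark the 5 probe sets at least 1.5-fold lower, which belong to DLL1, HES1 and HEY1; the dotted line is the median of all probe sets, 5.03, and rows are to be compared within a probe set only.

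HES1, a repressor of differentiation genes that also represses its own promoter, was read by 3 probe sets. The probe set that stood for the gene (203394_s_at) had a log2 value of 7.95 in untreated cells and 6.85 with IL4, a difference of -1.11. A further probe set (203395_s_at) had 7.77 in untreated cells and 6.63 with IL4, a difference of -1.14. Both were therefore more than 2-fold lower with IL4. The last HES1 probe set (203393_at) had 3.22 on both arrays. It was dim, that is, under 5.03, the median over all probe sets of the mean of both arrays (called the array median here). It was also the only HES1 probe set whose design does not allow binding to several transcripts, so the difference of HES1 was 0 when probe sets of that design were left out. Of all genes, 117 had a difference as low as HES1 or lower, HES1 included, which is 0.592% of them.

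The HES1 promoter is shown because HES1 is a well-known direct target of Notch and RBPJ. The bases are from the RefSeq window of GRCh38.p14, plus strand, and run from 250 bases before the transcription start to 10 bases after it. Capitals mark TGGGAA, the core letters that RBPJ recognizes.

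HES1, chr3:194135898-194136157: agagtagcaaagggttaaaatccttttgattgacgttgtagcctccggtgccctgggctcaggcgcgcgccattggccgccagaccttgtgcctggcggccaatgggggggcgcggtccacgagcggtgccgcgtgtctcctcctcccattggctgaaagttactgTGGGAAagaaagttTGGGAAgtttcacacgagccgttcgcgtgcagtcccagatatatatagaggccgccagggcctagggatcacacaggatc

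The matches lay at -84 to -79 and at -70 to -65, counted with -1 as the last base before the start and 1 as the start, and both ran in the direction of the gene. The full window of 300 bases also held 4 matches to CACNAG, the N box that HES proteins bind.

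HEY1, a related repressor of the same gene family, was read by 2 probe sets, both above the array median on both arrays. The probe set that stood for the gene (44783_s_at) had 6.88 in untreated cells and 5.80 with IL4, a difference of -1.09. The other (218839_at) had 6.29 in untreated cells and 5.58 with IL4, a difference of -0.71. Both HEY1 probe sets were therefore lower with IL4 by more than 1.5-fold, the second at 1.63-fold. Of all genes, 123 had a difference as low as HEY1 or lower.

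HEY2, a further repressor of this family, was dim on both arrays. Its probe sets had 2.90 and 2.48 in untreated cells and 2.38 and 2.39 with IL4, differences of -0.52 and -0.093. All 4 values were dim, and no fold is given. HEY2 was the only one of the 10 genes with a mean below the array median.

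The HEY2 promoter is shown for comparison, since it holds the same core letters in a different arrangement. The bases come from the same RefSeq table, plus strand, over the same span, with matches to TGGGAA or to its reverse complement TTCCCA in capitals.

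HEY2, chr6:125749382-125749641: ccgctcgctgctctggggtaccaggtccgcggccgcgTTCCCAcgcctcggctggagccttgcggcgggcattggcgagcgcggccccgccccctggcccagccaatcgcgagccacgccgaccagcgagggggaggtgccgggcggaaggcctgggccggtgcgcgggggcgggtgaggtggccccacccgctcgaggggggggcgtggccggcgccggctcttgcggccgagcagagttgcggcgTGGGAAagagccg

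The matches lay at -213 to -208, on the opposite strand, and at -3 to 3, across the start. In the target group, 4 of 7 probe sets were above the array median on both arrays. They belonged to HES1 and HEY1 and had differences that ran from -0.71 to -1.14. The other 3, all dim, were those of HEY2 and the HES1 probe set with equal values.

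NOTCH2 had the most probe sets of the receptors, and all 4 were higher with IL4 by less than 1.5-fold. The probe set that stood for the gene (202443_x_at) had 10.16 in untreated cells and 10.40 with IL4, a difference of 0.24. The other NOTCH2 probe sets had differences of 0.25, 0.37 and 0.40, the last from 5.36 to 5.76. A probe set shared with NOTCH2NL genes, partial copies of NOTCH2, was left out by the choice of single-gene probe sets. It had 7.81 in untreated cells and 8.09 with IL4, a difference of 0.28. Its annotation names 5 genes, so its signal cannot be assigned to 1 of them.

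NOTCH1 had 6.52 in untreated cells and 6.80 with IL4 on its higher probe set, a difference of 0.28, and 4.55 on both arrays on its dim probe set. NOTCH3 had 5.79 and 5.76 on its higher probe set, a difference of -0.032, and 5.20 on both arrays on the other. Over the receptors, 5 of 8 probe sets were higher, the 4 of NOTCH2 among them, 1 was lower and 2 were equal. Probe sets of 1 gene are not separate receptors, and each of the 8 was within 1.5-fold. Values that are exactly equal on both arrays were found for 3 of the 28 probe sets and for 8.28% of all probe sets (13.4% of the dim ones and 3.12% of the others).

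Among the ligands, JAG1 and DLL1 differed in opposite directions. JAG1, a ligand of the Jagged type, had 8.87 in untreated cells and 9.17 with IL4 on the probe set that stood for it, a difference of 0.30. A further JAG1 probe set had 8.53 and 8.84, a difference of 0.32. The other 4 JAG1 probe sets had differences from 0.026 to 0.26, so all 6 were higher, and none by 1.5-fold. JAG2, the other Jagged ligand, had 6.98 in untreated cells and 6.85 with IL4, and its second probe set had 6.73 and 6.61. These gave close differences of -0.13 and -0.12, both small.

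DLL1, a ligand of the Delta type, had 7.74 in untreated cells and 7.15 with IL4, a difference of -0.59. Its other probe set was dim, at 3.97 in untreated cells and 3.78 with IL4, a difference of -0.19. DLL1 passed 1.5-fold by a small margin: 868 genes were at least 1.5-fold lower, and DLL1 was number 853 from the lowest. It no longer passed with a loess correction of the difference on the mean level (-0.55) or with quantile normalization (-0.56), nor when its probe sets were averaged (-0.39).

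RBPJ, which binds the DNA of Notch target genes, had 9.23 in untreated cells and 9.47 with IL4, a difference of 0.24. A second probe set at a similar height, 8.79 and 8.78, had a difference of -0.013, and the remaining probe set was dim with 2.85 and 3.16. The probe sets of RBPJ thus differed in sign, and the gene was within 1.5-fold on each of them.

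The disagreement between probe sets of a gene gave a scale for these differences. In 6056 genes whose second-highest probe set was also above the array median, the log2 differences of these probe sets were subtracted from each other, and the results had a standard deviation of 0.25. This holds the error of both probe sets and any difference between the transcripts they read, and not variation between cultures. It is thus only a rough scale for the difference of a single probe set. The differences of HES1 (-1.11), HEY1 (-1.09), DLL1 (-0.59) and the dim HEY2 (-0.52) were larger than this. Those of NOTCH1 (0.28), NOTCH2 (0.24), JAG1 (0.30) and RBPJ (0.24) were close to it. Those of NOTCH3 (-0.032) and JAG2 (-0.13) were smaller.

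**Figure D2:**
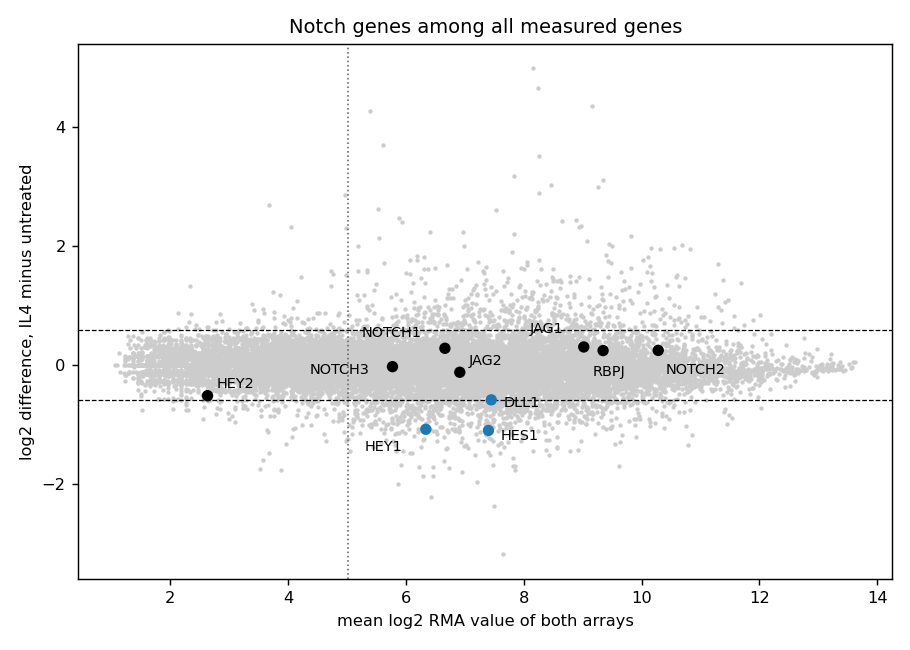
Log2 difference, IL4 minus untreated (y axis), (x axis: mean of both arrays, log2 RMA value), 1 grey point for each of 19775 genes. The 10 Notch genes are labelled, blue where at least 1.5-fold lower; HES1 (-1.11) and HEY1 (-1.09) lie below the dashed 1.5-fold line and DLL1 (-0.59) on its edge, while HEY2 lies left of the dotted array median.

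Promoter windows of 300 bases were found in the RefSeq table for 8 of the 10 genes, in 12 windows, 5 of them for RBPJ. HEY1 and DLL1 had no entry. A match to TGGGAA on either strand was found for HES1, HEY2 and RBPJ (in 1 of its windows), and in 24.0% of all 35116 windows of the table. The STAT6 element, TTC and GAA with 4 free bases between them, was found for RBPJ alone, in 1 window, against 6.44% of all windows. The letters TTCNNNGAA, which other STAT proteins also bind, were found for NOTCH3 alone, against 7.66% of all windows. A match to TGGGAA can lie within one to TTCNNNGAA, which was not the case in these windows. An N box (CACNAG) was found for NOTCH1, NOTCH2, NOTCH3, RBPJ and HES1, against 38.0% of all windows, and the E box CACGTG for 0 of the 8 genes, against 7.26%. The median share of G and C was 69.5% over the windows of these genes and 58.7% over the whole table. Single windows varied, with 59% for HES1 and from 35.3% to 75% for RBPJ. The matches are given per gene and the shares per window, and RBPJ had 5 windows. Genes and windows are unlike units, so the matches cannot be called more or less frequent than in all windows. These matches describe letters in a window and do not show that a factor was bound.

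The wider pathway was measured with 69 other genes in 7 lists by role. Of these, 2 were at least 1.5-fold higher, HES4 and BHLHE40, and 3 were at least 1.5-fold lower, MAML3, LFNG and NEURL1B, with a median log2 difference of -0.018. These counts, beside 3.21% higher and 4.39% lower of all genes, are near the background. The same shares stand beside the counts of the single lists below, which are small.

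Among other HES and HEY family genes and feedback targets, 2 of 9 were higher and 0 were lower, and the median was 0. HES4, a repressor related to HES1, had 5.89 in untreated cells and 6.86 with IL4, a 1.97-fold higher value on its single probe set (227347_x_at), whose design allows binding to several transcripts. HES4 was thus on the opposite side of 1.5-fold from HES1 and HEY1. BHLHE40, a repressor of the same protein class that takes part in the circadian clock, had 8.73 and 9.42 and was 1.61-fold higher. Its second probe set was also higher, with a difference of 0.59.

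Receptor glycosylation had 1 lower gene of 9 and 0 higher, and its median was -0.018. This gene was LFNG, a sugar transferase of the Fringe family that changes which ligands a Notch receptor answers to. LFNG had 7.59 in untreated cells and 6.29 with IL4, 2.48-fold lower. Its other probe set (215270_at), at 5.16 and 5.20, had a difference of 0.040, so the LFNG probe sets did not move together.

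Among genes of ligand and receptor turnover, 1 of 15 was lower and 0 were higher, and the median was 0.025. NEURL1B, a ubiquitin ligase of the Neuralized family, had 8.03 in untreated cells and 7.20 with IL4, 1.78-fold lower on its single probe set. Among nuclear coactivators, 1 of 8 was lower and 0 were higher, with a median of -0.10. MAML3, a Mastermind coactivator, had 6.13 in untreated cells and a dim 4.75 with IL4, a difference of -1.38 for which no fold is given. Its other probe sets were dim, with differences of -0.31 and -0.040.

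On the probe sets that stood for them, no gene passed 1.5-fold among the other receptors and ligands, receptor cleavage or nuclear corepressors. Of 6 other receptors and ligands, DNER, a Notch-binding membrane protein, had the largest difference at 0.41, and DLL3 had 0.26. Of 8 receptor cleavage genes, the protease gene ADAM10 had -0.29 and APH1B, a subunit of gamma-secretase, had 0.15. Of 14 corepressor genes, TLE4 and TLE1, which encode Groucho proteins that bind HES repressors, had 0.46 each. Other probe sets of these genes were past 1.5-fold, for TLE1 at 9.38 in untreated cells and 10.12 with IL4, a difference of 0.74, and for TLE4 at 2.73 and 3.86, both dim. SPEN, a corepressor gene named apart from the rule given below, had 0.42. Its 4 probe sets had differences from 0.35 to 0.64, the largest past 1.5-fold. The medians of these lists were 0.18, 0.041 and -0.11.

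**Figure D3:**
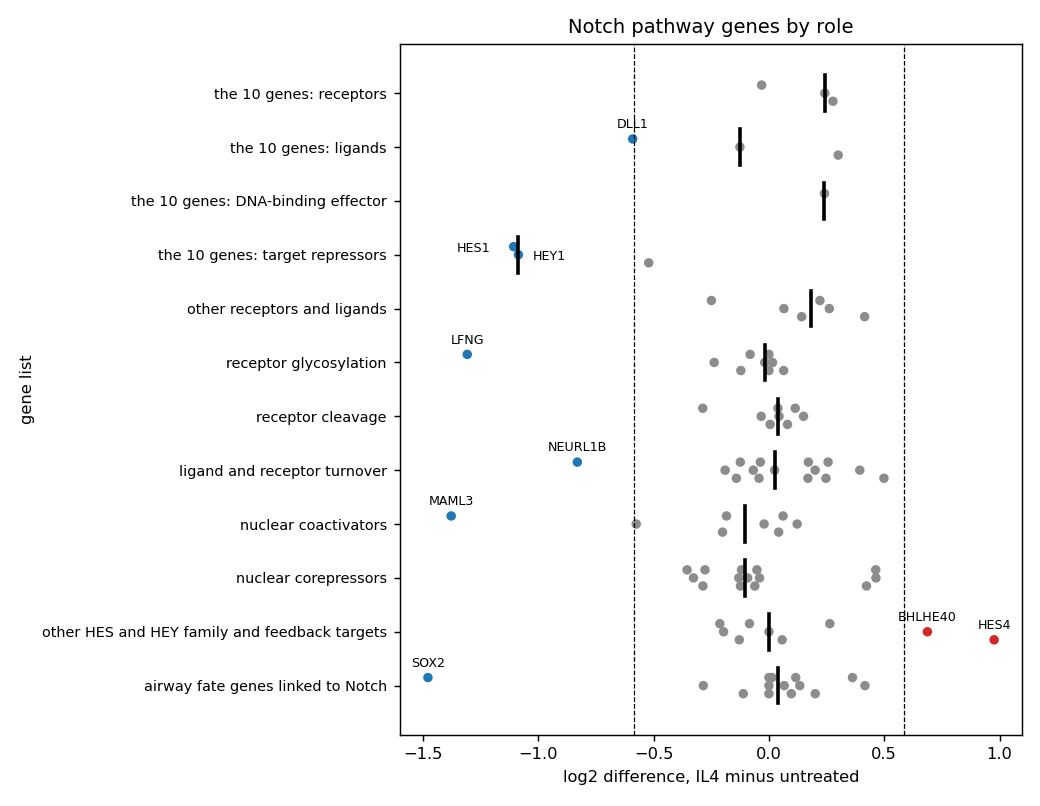
Log2 difference, IL4 minus untreated (x axis), for the 10 Notch genes (upper 4 rows), 69 further pathway genes and 14 airway fate genes by role (rows), 1 point per gene, shifted vertically for visibility. Black bars are medians and dashed lines mark 1.5-fold; blue and red points are genes past it, with HES1 and HEY1 near -1.1 in the target row and HES4 (0.98) the highest point.

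Of 14 airway fate genes linked to Notch, 1 was lower and 0 were higher, where 4.39% and 3.21% of all genes were. The median of this list was 0.040. SOX2, a transcription factor of airway progenitors, had 6.81 in untreated cells and 5.33 with IL4, 2.79-fold lower. Its other 3 probe sets had differences from -0.031 to -0.17, so 1 probe set alone carried the SOX2 difference. These 3 were near or under the array median, from 4.76 to 5.17 in untreated cells and from 4.73 to 5.04 with IL4.

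The label of the cells was checked against marker genes. All 10 markers of lung adenocarcinoma epithelium had a mean above the array median, with values from 6.29 to 11.80 in untreated cells and from 6.13 to 11.84 with IL4. CDH1, the gene of E-cadherin, was 1.68-fold higher, and NKX2-1, a lung lineage factor, had 7.88 and 6.91 and was 1.96-fold lower. Its second probe set, at 5.97 and 5.65, had a difference of -0.32, short of 1.5-fold. Of 10 endothelial markers, a cell type in which Notch genes are prominent, 0 passed 1.5-fold. Their values ran from 2.93 to 5.96 in untreated cells and from 2.93 to 6.11 with IL4, with sums of 44.4 and 45.7 and a median difference of 0.14. CDH5, the gene of the endothelial cadherin, named apart from the rule given below, had the lowest value of the list, 2.93 on both arrays. The largest endothelial differences were 0.44 for KDR, dim on both arrays, and 0.31 for ESAM. Of 10 fibroblast markers, COL3A1 alone passed 1.5-fold (3.67 and 4.45, both dim). Their values ran from 2.60 to 10.82 in untreated cells and from 2.67 to 11.23 with IL4, with sums of 50.4 and 52.0 and a median difference of 0.086. The 3 with a mean above the array median had a median difference of 0.41. They were COL1A1 at 10.82 and 11.23, FAP at 6.74 and 7.22, and THY1 at 5.02 and 5.07, a difference of 0.055. The 5 COL1A1 probe sets had differences from 0.055 to 0.90. COL1A2 (-0.23) and DCN (-0.27), with means under the array median, were lower. These 5 genes were named after their values were seen. Of 7 leukocyte markers, 0 passed, with sums of 35.5 and 36.2. Their values ran from 2.50 to 9.72 in untreated cells and from 2.37 to 10.22 with IL4. HLA-DRA, at 9.72 and 10.22, and LYZ had the largest differences, 0.50 and 0.32. PTPRC, named apart from the rule given below, had the lowest values, 2.50 and 2.37. As a sign of RNA quality, the 3′ minus 5′ value of the control probe sets differed between the arrays by -0.30 for ACTB and -0.015 for GAPDH. The part of these values in the Notch results was not tested.

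**Figure D4:**
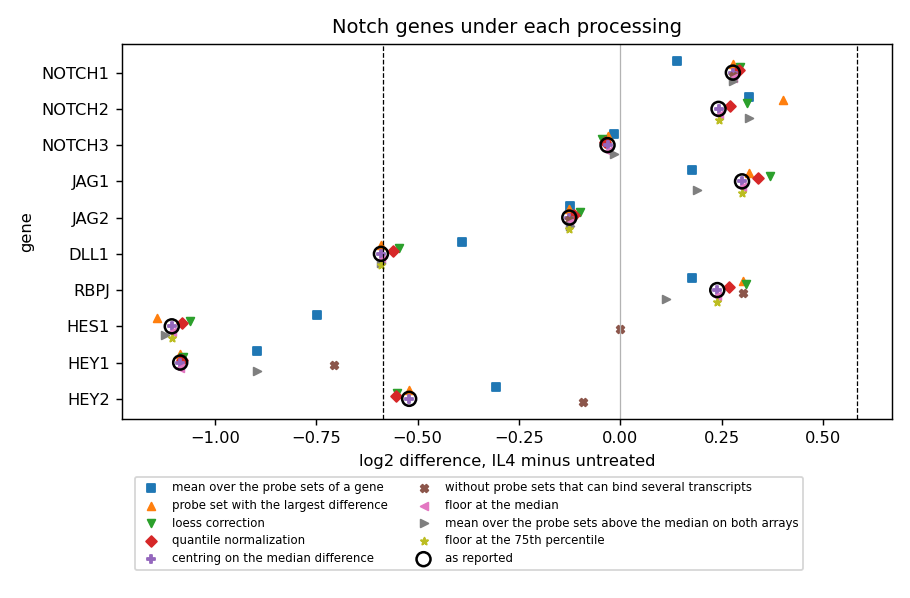
Log2 difference, IL4 minus untreated (x axis), of each Notch gene (rows) as reported (black rings) and under 9 other ways of processing (coloured marks); dashed lines mark 1.5-fold. HEY1 stays left of the 1.5-fold line under each that kept it (it falls below the floor at the 75th percentile), whereas HES1 reaches 0 when probe sets open to several transcripts are left out and DLL1 lies on either side of the line.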

How the data were processed

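The values the authors deposited are on a log2 scale, 1 for each probe set on each array. RMA is named in the submitters' processing notes, with no version, and GCOS 1.4 for raw data in the methods of the paper. Scanner files were not analysed here, so neither the background correction nor the normalization was repeated. A genome build for these values is not given in the sources used here.

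Through the array annotation, 41091 of 54675 probe sets were assigned to 1 gene. Several genes were listed for 1801, no gene for 11721, and 62 were controls. Current symbols for 41037 of the single-gene probe sets came from RefSeq (GRCh38.p14), which also gave the promoter windows. The probe set with the highest mean stood for a gene, and 1.5-fold was the level for counting. No test was made. The number of arrays limits the precision.

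The 10 genes, the gene lists and the motifs were chosen with earlier results of these data known. From each further list, up to 4 genes higher and 4 lower by at least 1.5-fold were named, or the 2 largest differences where none passed. Some genes of the lists were not analysed here.

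The counting was tested on simulated data. As alternatives, the level was set to 2-fold, genes were required to reach the median or the 75th percentile of all probe sets, probe sets of a gene were averaged or the one with the largest difference was taken, a loess correction (fraction 0.3), quantile normalization or centring was applied, and probe sets with _s_ or _x_ in their name, which are open to several transcripts, were left out. An average over probe sets above the median on both arrays was added after seeing the data. Calculations used Python 3.11.15, numpy 2.4.6, pandas 2.3.3, statsmodels 0.14.6 and matplotlib 3.10.9.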

Additional observations from a re-analysis of the deposited data

How the results depend on the processing

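Of 80 values of single genes under the alternatives, 0 had the opposite sign, and 76 moved by less than the standard deviation between probe sets (0.25). Centring subtracted a median of 0 and the floors only left genes out. The 10 values under centring and the 9 and 6 values under the floors therefore could not move. Where another choice of probe sets kept the same probe set, the value also stayed the same. The 4 values that moved further were of HES1, HEY1 and HEY2. Separately counted, 4 values no longer passed 1.5-fold, and those of DLL1 among them moved by less than 0.25. HES1 was -0.75 averaged over its probe sets, and 0 after probe sets open to several transcripts were left out, where its dim probe set alone remained. HEY1 was -0.71 and HEY2 -0.093 in that setting, which left 6 of the 10 genes, 1 of them, HEY1, at least 1.5-fold lower. The other 3 values that no longer passed were those of DLL1 given above. With the mean over probe sets above the median on both arrays, HES1 was -1.12 and HEY1 -0.90. In the wider pathway, the number of genes at least 1.5-fold higher was 2 as reported, 6 with the probe set of the largest difference, 0 after probe sets open to several transcripts were left out, 1 with the floor at the 75th percentile and 0 at 2-fold. No replicate could be left out. No paired analysis was possible because each condition has 1 array.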
